A study of Mus musculus with 6 samples.

Results

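The chemokine system of the infarcted mouse heart was described through 65 genes, of 35498 genes measured. They were all protein-coding genes whose symbol starts with Ccl, Ccr, Cxcl, Cxcr or Ackr and a digit, together with Cx3cl1, Cx3cr1, Xcl1 and Xcr1. The 65 genes comprised 42 ligands and 23 receptors, and 4 of the receptors were atypical receptors. They carried 61 distinct symbols, since 6 genes lay on unplaced scaffolds and some of these share a symbol with another gene. Many sat in clusters, with 12 of the 42 ligands on chromosome 11, 10 ligands on chromosome 5 and 12 of the 23 receptors on chromosome 9. A further 3 genes had a matching symbol but were not protein-coding, Cxcl11 among them, and were left out.

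Chemokines are small secreted proteins that steer leukocytes along concentration gradients. They act through membrane-spanning receptors coupled to inhibitory G proteins, whereas atypical receptors bind chemokines without that coupling and clear or transport them. In the heart after infarction, CCR2 and its ligands are known for drawing in monocytes from the blood, and CXCL12 with its receptor CXCR4 for the retention and homing of leukocytes and progenitor cells. RUNX1, the factor deleted here, is a DNA-binding transcription factor.

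RNA came from ventricular tissue below a ligature of the left anterior descending coronary artery (LAD), 7 days after infarction, in C57BL/6J mice aged 8 to 10 weeks. In the Runx1_FB_KO group (n = 3) the genotype was Postn CreER+/-; Runx1 fl, and in the CTL group (n = 3) it was Postn CreER+/-; Runx1 WT. Both groups thus carried the inducible recombinase and were fed tamoxifen from surgery to collection. It is driven by Postn (periostin), which marks activated fibroblasts, so that Runx1 in cells without Postn is not its target. Runx1_FB_KO replicate 1 was male and replicates 2 and 3 were female, while CTL replicate 1 was female and replicates 2 and 3 were male. The labels do not say that each library came from a separate animal, so p-values measure the spread between these 6 samples, which may be technical.

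The libraries held 16598561 to 19987279 estimated reads, and the Runx1_FB_KO libraries were unlike each other. Runx1 was at 17.5, 10.9 and 67.4 CPM (reads per library size, scaled by TMM factors) in Runx1_FB_KO replicates 1, 2 and 3, against 96.4, 86.9 and 85.5 CPM in CTL replicates 1, 2 and 3. Replicate 3 of the knockout therefore kept most of the transcript, although it too lay below CTL. Transcripts encoded in mitochondria took 10.4% to 24.5% of reads in Runx1_FB_KO and 5.36% to 7.11% in CTL. The 9 cardiomyocyte markers were all higher in Runx1_FB_KO, with a summed level of 24142 to 87854 CPM against 10031 to 12259 CPM in CTL. All 5 pan-leukocyte markers had a log2 fold change below 0, with a summed level of 200.4 to 543 CPM in Runx1_FB_KO and 555 to 845 CPM in CTL, and none of the 5 was at 0 in any library. The 9 macrophage markers had a summed level of 675 to 1615 CPM in Runx1_FB_KO and 1677 to 2275 CPM in CTL, and none was at 0. The 6 fibroblast markers, whose median log2 fold change was -0.57, were uneven. Col1a1, a collagen chain, was at 1880 to 8606 CPM in Runx1_FB_KO and 9203 to 11429 CPM in CTL, while Dcn (decorin) was at 819 to 969 CPM in Runx1_FB_KO and 604 to 1274 CPM in CTL. All 5 activated fibroblast markers, Postn among them, had a log2 fold change below 0, with a median of -1.235. They summed to 847, 549 and 3976 CPM in Runx1_FB_KO replicates 1, 2 and 3, against 3402.5 to 5151 CPM in CTL. Knockout replicate 3 thus lay within the CTL range. In bulk tissue, fewer cells of a type and less RNA per cell cannot be told apart, and the part of these marker levels in the chemokine values was not tested.

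No chemokine gene passed the test of Runx1_FB_KO against CTL with all 6 libraries. Of 43 genes with enough reads to be tested (27 ligands and 16 receptors), 0 had an edgeR adjusted p under 0.05, against 0% of the 14237 genes tested. At an unadjusted p under 0.05, edgeR gave 2 members higher and 11 lower in Runx1_FB_KO, where 19.3% of all genes were higher and 13.1% lower. DESeq2 on the same filtered genes called 1 member higher (Ackr3) and 6 lower (Cxcl13, Ccl3, Cxcr6, Ccr2, Cxcl10 and Ccl6) of 42 that it gave an adjusted p, where 15.6% of all genes were higher and 5.9% lower. Without filterByExpr, DESeq2 called 1 member higher and 5 lower (14.6% and 5.04% of all genes) and edgeR called 1 higher, Ackr3, and 0 lower (4.21% and 0.193% of all genes). At an edgeR adjusted p under 0.1, 1 member was higher (Ackr3) and 3 were lower (Ccl3, Ccr2 and Cxcl13), where 12.5% of all genes were higher and 3.74% lower. The direction was uneven: 36 of 43 members had a log2 fold change below 0, against 54% of all genes. They were 21 of the 27 ligands and 15 of the 16 receptors, and 29 of the 36 stayed below 0 without each library in turn. The median log2 fold change was -0.77 over the 27 tested ligands and -0.79 over the 16 tested receptors, against -0.06 over all genes tested.

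The 3 Runx1_FB_KO values lay wholly apart from the 3 CTL values for 11 of 43 members. Above CTL were 2, Ackr3 and Ccl27a, where 20.2% of all genes were above. Below CTL were 9, the ligands Ccl3, Ccl5, Ccl6, Ccl8, Ccl9, Ccl19 and Cxcl5 and the receptors Ccr2 and Cxcr6, where 18.8% of all genes were below. The share of members below CTL was thus near that of all genes, and the share above it was smaller. In 27 of the 36 members below 0, Runx1_FB_KO replicate 3 had the highest of the 3 knockout values, and in 23 of them it lay at or above the lowest CTL value. Without that library, edgeR called 3 members higher (Ackr3, Ccl27a and Ccl11) and 16 lower, where 25.1% of all genes were higher and 22.5% lower. Values without Runx1_FB_KO replicate 3 are therefore given beside those with all libraries. That choice rests on the values themselves, and leaving the library out narrows the spread within the knockout group. The p-values without it are thus no independent evidence of a difference.

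**Figure D1:**
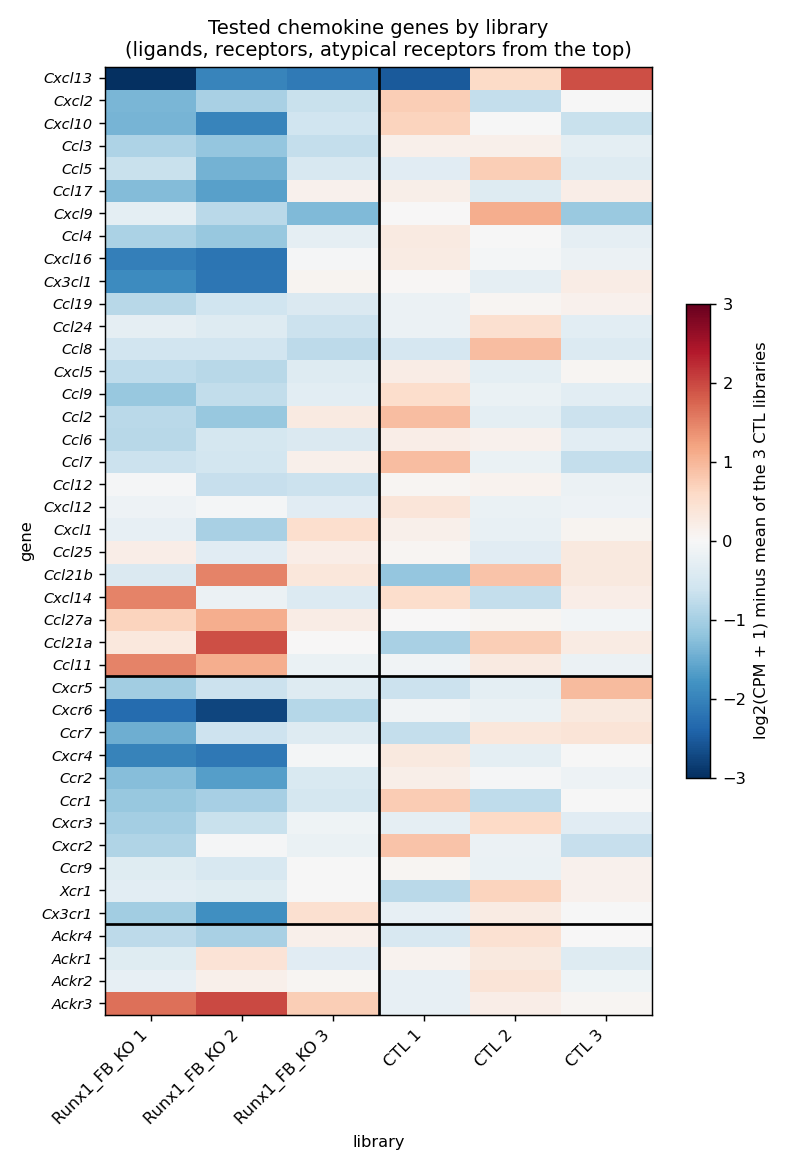
Colour shows log2(CPM + 1) of 42 of the 43 tested chemokine genes (rows) in the 6 libraries (columns), minus the mean of the 3 CTL libraries, so that blue is below CTL and red above it. Runx1_FB_KO replicates 1 and 2 are blue for most ligands and receptors, replicate 3 is paler, and Ackr3 in the bottom row is red in all 3.

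**Figure D2:**
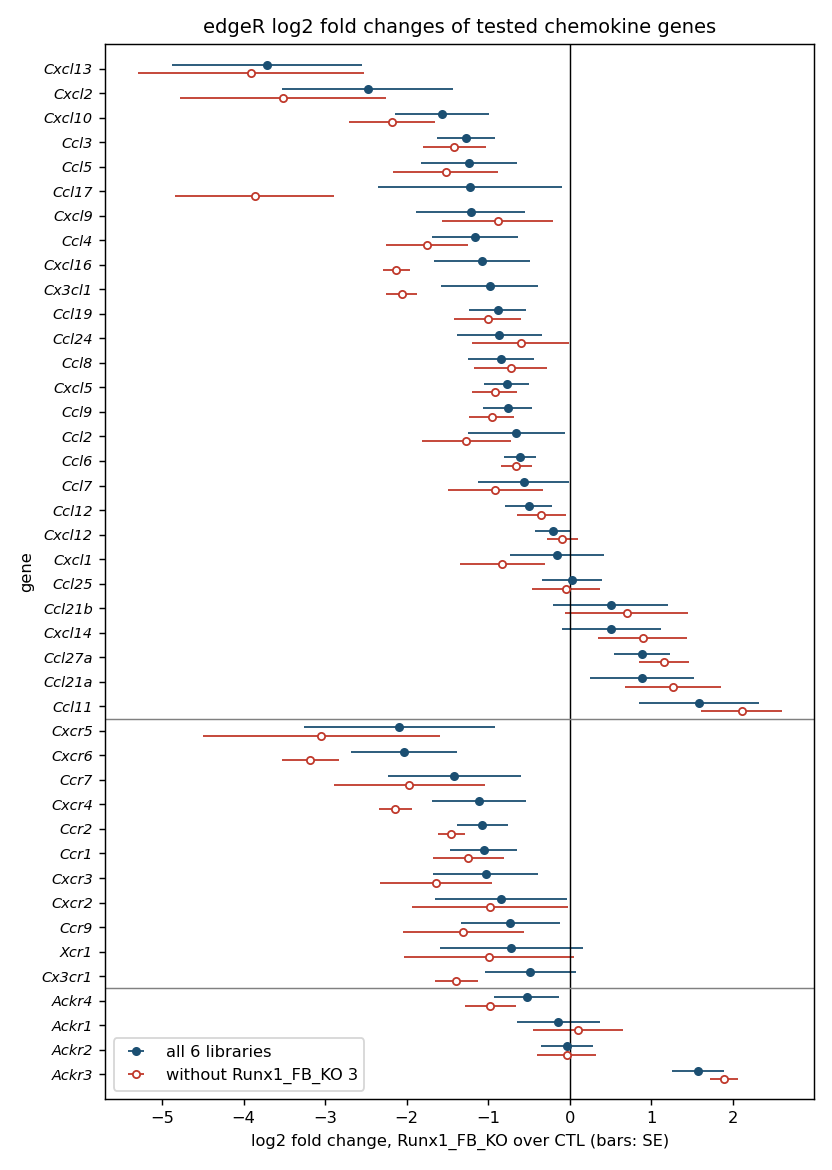
Points show the edgeR log2 fold change of Runx1_FB_KO over CTL for 42 of the 43 tested genes, with bars for the standard error, using all 6 libraries (filled) or without Runx1_FB_KO replicate 3 (open). With all libraries most points lie below 0. Open points near or below -2 include those of Cxcl16, Cx3cl1, Cxcl10, Cxcr4 and Cxcr6, and those of Cxcl13, Ccl17 and Cxcl2 lie lower still (-3.91, -3.86 and -3.51).

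Among ligands, 3 genes held about as much of the ligand message as the rest together. Ccl6, Cxcl12 and Ccl8 made up 47.9%, 45.1% and 41.7% of the summed ligand TPM (abundance per transcript length within a library) in Runx1_FB_KO replicates 1, 2 and 3, against 47.8%, 51.8% and 43.5% in CTL replicates 1, 2 and 3. The shares of the groups overlapped. All ligands summed to 463, 514 and 604 CPM in Runx1_FB_KO, against 856, 729 and 696 CPM in CTL, and these sums did not overlap. CCL6 is a rodent chemokine made by myeloid cells, CCL8 attracts monocytes and T cells, and CXCL12 is made by stromal and endothelial cells.

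The inflammatory ligands Ccl3, Ccl4, Ccl5, Ccl6 and Ccl9, which attract monocytes, macrophages and T cells, lay in a single direction. All 5 had a log2 fold change below 0, and 4 lay below CTL without overlap, as did 18.8% of all genes. Ccl6 (GRCm38 chr11:83587882-83593087, minus strand) was at 53.7, 65.8 and 70.7 CPM in Runx1_FB_KO, against 110, 105 and 76.6 CPM in CTL. Every knockout value lay below every CTL value, although Runx1_FB_KO replicate 3 came close to CTL replicate 3. For Ccl6, edgeR gave a log2 fold change of -0.61 (SE 0.20, adjusted p = 0.101), and -0.66 (edgeR adjusted p = 0.0243) without Runx1_FB_KO replicate 3. Ccl9 (chr11:83572919-83578636, minus strand), a neighbour of Ccl6, was at 27.7, 36.5 and 49.2 CPM in Runx1_FB_KO, against 89.7, 53.6 and 49.5 CPM in CTL. Here too the groups stood apart, but by a narrow margin between the replicates numbered 3. For Ccl9, edgeR gave a log2 fold change of -0.76 (SE 0.30, adjusted p = 0.139), and -0.96 (edgeR adjusted p = 0.0261) without Runx1_FB_KO replicate 3. It shrank to -0.44 without CTL replicate 1, which was the highest library.

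Ccl3 (chr11:83647844-83649355, minus strand), which encodes macrophage inflammatory protein 1 alpha, had the smallest p among ligands. It was at 1.77, 1.33 and 2.20 CPM in Runx1_FB_KO, against 4.80, 4.78 and 3.28 CPM in CTL. All 3 knockout libraries were low, replicate 3 included, and none overlapped CTL. For Ccl3, edgeR gave a log2 fold change of -1.27 (SE 0.35, adjusted p = 0.0819), with DESeq2 giving an adjusted p of 0.00941 and edgeR -1.42 (adjusted p = 0.0199) without Runx1_FB_KO replicate 3. Ccl5, which attracts T cells, was at 0.703 to 2.30 CPM in Runx1_FB_KO and 2.49 to 6.61 CPM in CTL, without overlap (log2 fold change -1.24, edgeR adjusted p = 0.184, and -0.63 without CTL replicate 2). Ccl4 was at 0.625 to 1.94 CPM in Runx1_FB_KO and 1.94 to 3.29 CPM in CTL, and the groups met at their edges (log2 fold change -1.16, edgeR adjusted p = 0.170).

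Ccl8 (chr11:82115185-82116799, plus strand) was even across the knockout libraries and uneven across CTL. It was at 15.1, 15.2 and 12.9 CPM in Runx1_FB_KO, against 15.9, 44.4 and 17.2 CPM in CTL. The groups did not overlap, but CTL replicate 2 alone was far higher and the other two CTL libraries were barely above the knockout. For Ccl8, edgeR gave a log2 fold change of -0.84 (SE 0.41, adjusted p = 0.189), which shrank to -0.20 without CTL replicate 2.

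The CCR2 ligands Ccl2, Ccl7 and Ccl12, which recruit monocytes, lay side by side on chromosome 11 with Ccl8 and Ccl11. All 3 had log2 fold changes below 0 and none separated the groups, and for Ccl2 and Ccl7 the sign rested on CTL replicate 1. Ccl2 (chr11:82035571-82037453, plus strand) was at 4.52, 3.36 and 10.7 CPM in Runx1_FB_KO, against 17.4, 6.87 and 5.12 CPM in CTL. Runx1_FB_KO replicate 3 lay above 2 of the CTL libraries, and CTL replicate 1 was the highest of all. For Ccl2, edgeR gave a log2 fold change of -0.65 (SE 0.60, adjusted p = 0.449), which turned to 0.053 without CTL replicate 1. Ccl7 was at 2.88 to 5.77 CPM in Runx1_FB_KO and 2.69 to 10.5 CPM in CTL, and its log2 fold change of -0.56 turned to 0.18 without CTL replicate 1. Ccl12 (chr11:82101845-82103400, plus strand) was at 7.20, 4.22 and 4.44 CPM in Runx1_FB_KO, against 7.87, 8.12 and 6.51 CPM in CTL (log2 fold change -0.50, SE 0.29, edgeR adjusted p = 0.249). The first knockout library overlapped CTL and the other two did not.

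Ligands of CXCR2, which recruit neutrophils, and of CXCR3, which recruit activated T cells, were at low levels. The CXCR2 ligands summed to 5.39 to 11.2 CPM in Runx1_FB_KO and 9.20 to 16.5 CPM in CTL. The CXCR3 ligands, with Cxcl11 counted here although it is not a member, summed to 4.61 to 7.53 CPM in Runx1_FB_KO and 7.31 to 23.2 CPM in CTL. Both sums overlapped. Cxcl5 (chr5:90759360-90761624, plus strand), a CXCR2 ligand, was at 4.32, 4.06 and 5.92 CPM in Runx1_FB_KO, against 9.65, 6.38 and 8.50 CPM in CTL. The groups stood apart, and edgeR gave a log2 fold change of -0.77 (SE 0.28, adjusted p = 0.120), or -0.92 (edgeR adjusted p = 0.0288) without Runx1_FB_KO replicate 3. Cxcl2 was at 0 to 0.613 CPM in Runx1_FB_KO and 0.580 to 3.29 CPM in CTL, and Cxcl1 at 0.781 to 3.98 CPM in Runx1_FB_KO and 2.01 to 2.89 CPM in CTL. Cxcl10, induced by interferon, was at 1.25 to 4.90 CPM in Runx1_FB_KO and 4.62 to 13.2 CPM in CTL (log2 fold change -1.57, SE 0.58, edgeR adjusted p = 0.126, DESeq2 adjusted p = 0.0487). Its groups overlapped only at Runx1_FB_KO replicate 3. Cxcl9 was at 2.04 to 5.17 CPM in Runx1_FB_KO and 2.49 to 15.3 CPM in CTL, and its log2 fold change of -1.22 shrank to -0.39 without CTL replicate 2.

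The transmembrane ligands Cxcl16 and Cx3cl1, whose products are held at the cell surface and shed, split the knockout libraries. Cxcl16 (chr11:70453983-70459984, minus strand), the ligand of CXCR6, was at 27.6, 24.9 and 115 CPM in Runx1_FB_KO, against 138, 113 and 103 CPM in CTL. Replicates 1 and 2 of the knockout were far below CTL, and replicate 3 lay within the CTL range. For Cxcl16, edgeR gave a log2 fold change of -1.08 (SE 0.59, adjusted p = 0.230), and -2.12 (SE 0.17, edgeR adjusted p = 0.000121) without Runx1_FB_KO replicate 3. Cx3cl1 (chr8:94772009-94782427, plus strand), or fractalkine, was at 16.1, 13.3 and 66.3 CPM in Runx1_FB_KO, against 64.6, 51.9 and 73.4 CPM in CTL. It showed the same split, with replicate 3 inside the CTL range. For Cx3cl1, edgeR gave a log2 fold change of -0.98 (SE 0.60, adjusted p = 0.270), and -2.06 (SE 0.19, edgeR adjusted p = 0.000226) without Runx1_FB_KO replicate 3. Exons of Cxcl16 overlap those of Zmynd15 on the other strand, which was given 43 to 333 reads in Runx1_FB_KO and 281 to 318 in CTL, and the strand setting of the counting is not given in the sources used here.

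Cxcl13, which attracts B cells into lymphoid follicles, had the lowest log2 fold change of all tested members. It (chr5:95956951-95961068, plus strand) was at 0.720, 3.20 and 2.81 CPM in Runx1_FB_KO, against 1.91, 23.7 and 62.9 CPM in CTL. The knockout libraries were all low, but CTL replicate 1 was as low as they were, so the groups overlapped. For Cxcl13, edgeR gave a log2 fold change of -3.71 (SE 1.16, adjusted p = 0.0972). DESeq2 gave an adjusted p of 0.00236 on the genes that filterByExpr kept and 0.0226 without that filter. With sex as a covariate, the edgeR log2 fold change was -2.40 (edgeR adjusted p = 0.414). CTL replicate 1 was the female of its group. The 5 B cell markers had a summed level of 2.42, 2.65 and 9.65 CPM in Runx1_FB_KO, against 4.98, 17.6 and 60.9 CPM in CTL, highest in the library that was highest in Cxcl13. Their part in the Cxcl13 value was not tested. Cxcr5, the receptor of CXCL13, was at 0 to 0.562 CPM in Runx1_FB_KO and 0.311 to 2.93 CPM in CTL, highest in the same CTL library.

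Ligands of CCR7, which guide dendritic cells and naive T cells, did not share a direction. Ccl19 was at 1.24, 1.64 and 1.94 CPM in Runx1_FB_KO, against 2.49, 3.12 and 3.33 CPM in CTL, without overlap (log2 fold change -0.89, SE 0.35, edgeR adjusted p = 0.141). The Ccl21 genes are near-identical copies, so reads may be divided between them and single copies are uncertain. Summed over the copies, Ccl21 was at 21.5, 73.2 and 21.9 CPM in Runx1_FB_KO, against 8.89, 35.4 and 24.0 CPM in CTL. Runx1_FB_KO replicate 2 was the highest and the groups overlapped. Ccl21a on chromosome 4 (chr4:42772860-42773993, minus strand) was at 17.1, 53.9 and 13.7 CPM in Runx1_FB_KO, against 6.4, 23.1 and 16.1 CPM in CTL. Ccl21b on a scaffold was at 4.39, 19.3 and 8.22 CPM in Runx1_FB_KO, against 2.27, 12.3 and 7.91 CPM in CTL. Both had positive log2 fold changes (0.89 with edgeR adjusted p = 0.341, and 0.50 with edgeR adjusted p = 0.629), and that of Ccl21b turned to -0.0099 with library size alone as the scaling. Without Runx1_FB_KO replicate 2 they were 0.020 for Ccl21a and -0.24 for Ccl21b. Ccr7 was at 0.131 to 1.38 CPM in Runx1_FB_KO and 0.889 to 3.03 CPM in CTL.

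Of the 27 tested ligands, 6 had a log2 fold change above 0, the Ccl21 copies and Ccl25 among them. Ccl27a (chr4:41769467-41774247, minus strand), a skin-homing chemokine in its best known role, was at 5.11, 7.18 and 3.47 CPM in Runx1_FB_KO, against 2.89, 2.99 and 2.64 CPM in CTL. All 3 knockout libraries lay above CTL, replicate 3 least so. For Ccl27a, edgeR gave a log2 fold change of 0.88 (SE 0.34, adjusted p = 0.137), and 1.15 (edgeR adjusted p = 0.0175) without Runx1_FB_KO replicate 3. Its exons overlap those of Il11ra1 on the other strand, which was given 998 to 1421 reads in Runx1_FB_KO and 1559 to 2177 in CTL. Ccl11 (chr11:82057823-82062955, plus strand), or eotaxin, which attracts eosinophils through CCR3, was at 3.99, 2.81 and 0.562 CPM in Runx1_FB_KO, against 0.667, 1.16 and 0.597 CPM in CTL. Replicates 1 and 2 were high and replicate 3 lay below every CTL library. For Ccl11, edgeR gave a log2 fold change of 1.58 (SE 0.73, adjusted p = 0.176), and 2.11 (SE 0.50, edgeR adjusted p = 0.0111) without Runx1_FB_KO replicate 3. Cxcl14 (chr13:56288643-56296551, minus strand), a tissue chemokine, was at 29.2, 8.59 and 7.10 CPM in Runx1_FB_KO, against 14.5, 5.54 and 11.5 CPM in CTL. A single knockout library set its log2 fold change of 0.51 (edgeR adjusted p = 0.564), which was -0.42 without Runx1_FB_KO replicate 1.

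CXCL12 signals through CXCR4 and is scavenged by ACKR3. Cxcl12 (chr6:117168535-117181367, plus strand) was at 222, 235 and 195 CPM in Runx1_FB_KO, against 316, 216 and 220 CPM in CTL. The groups overlapped, with CTL replicate 1 the highest. For Cxcl12, edgeR gave a log2 fold change of -0.21 (SE 0.22, adjusted p = 0.519), which was -0.0036 without CTL replicate 1. Cxcr4 (chr1:128588199-128592293, minus strand) was at 12.6, 11.2 and 50.8 CPM in Runx1_FB_KO, against 65.5, 43.5 and 53.1 CPM in CTL. Replicates 1 and 2 were far below CTL and replicate 3 within its range. For Cxcr4, edgeR gave a log2 fold change of -1.11 (SE 0.58, adjusted p = 0.213), and -2.14 (SE 0.20, edgeR adjusted p = 0.000237) without Runx1_FB_KO replicate 3.

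Ackr3 (chr1:90203980-90216751, plus strand), which binds and removes CXCL12 and CXCL11, was the member with the smallest p. It was at 79.9, 100.4 and 42.4 CPM in Runx1_FB_KO, against 20.9, 28.4 and 25.7 CPM in CTL. Every knockout library lay above every CTL library, and the third was the nearest to CTL. For Ackr3, edgeR gave a log2 fold change of 1.57 (SE 0.32, adjusted p = 0.0682, DESeq2 adjusted p = 0.000276), and 1.89 (SE 0.17, edgeR adjusted p = 0.000189) without Runx1_FB_KO replicate 3. Left out in turn, each library gave a log2 fold change between 1.29 and 1.89. An edgeR adjusted p of 0.0682 was also the smallest over all 14237 genes, and other genes shared it. The cardiomyocyte markers Ckmt2 and Myl3 had this value with a smaller unadjusted p than Ackr3, and Il17ra with a larger one. The value therefore does not set Ackr3 apart from those genes. The 9 cardiomyocyte markers summed to 68245, 87854 and 24142 CPM in Runx1_FB_KO, against 11486, 12259 and 10031 CPM in CTL. These sums were in the same order as Ackr3 within the knockout but not within CTL. The part of these markers in the Ackr3 value was not tested.

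**Figure D3:**
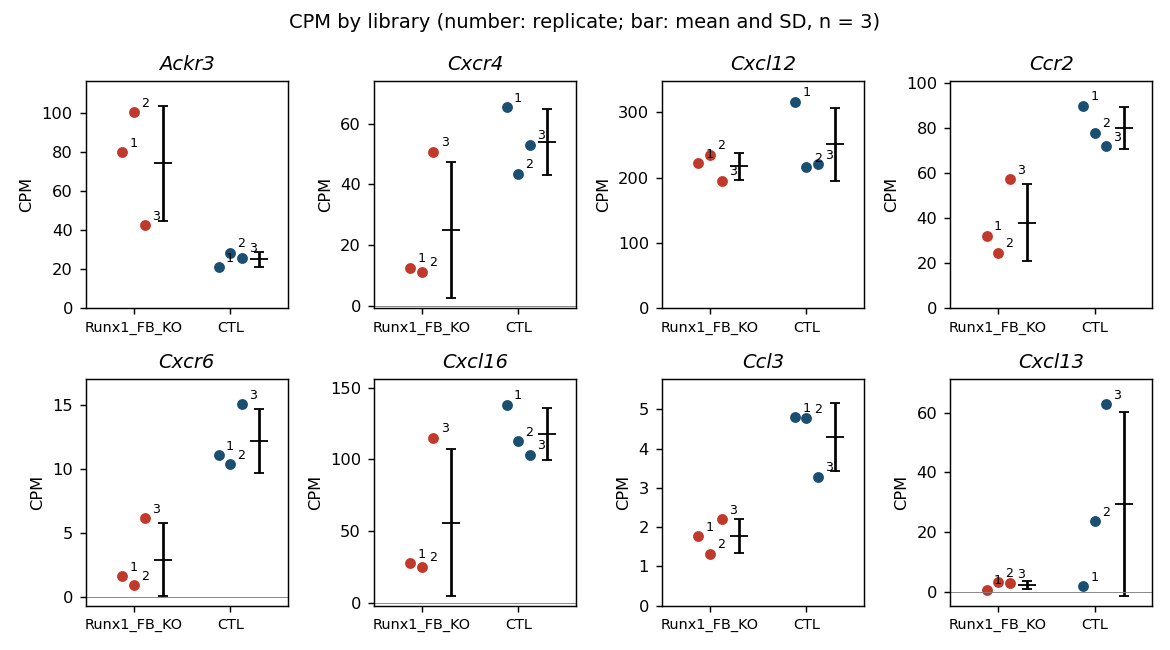
Points give CPM by library (number: replicate) for 8 chemokine genes, Runx1_FB_KO left of CTL, with the mean and SD (n = 3) beside them. Ackr3 lies above CTL in each knockout library, Ccr2, Cxcr6 and Ccl3 lie below it, and for Cxcr4 and Cxcl16 replicate 3 sits among the CTL points.

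Although the total of Cxcl12 overlapped between the groups, the shares of its reads given to each of its 3 coding variants did not. These variants share their first 267 coding bases and differ after them. They encode 119 codons (Cxcl12-201, known as the gamma form), 89 codons (Cxcl12-202, alpha) and 93 codons (Cxcl12-203, beta). The last bases of each coding part are shown because they are what sets the variants apart, with the 12 shared bases in lower case and the variant's own bases, stop codon included, in capitals (GENCODE M21 transcripts, GRCm38 chromosome 6, plus strand):
Cxcl12-201: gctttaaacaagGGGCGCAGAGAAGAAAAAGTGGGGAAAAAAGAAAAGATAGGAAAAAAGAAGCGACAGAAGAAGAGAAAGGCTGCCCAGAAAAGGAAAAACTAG
Cxcl12-202: gctttaaacaagTAA
Cxcl12-203: gctttaaacaagAGGCTCAAGATGTGA

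The long form Cxcl12-201 was at 174, 178 and 83.5 CPM in Runx1_FB_KO, against 70.8, 77.0 and 53.5 CPM in CTL. All 3 knockout libraries lay above CTL, replicate 3 only just. It took 78.4%, 75.5% and 42.8% of the gene's reads in Runx1_FB_KO, against 22.4%, 35.6% and 24.2% in CTL, again without overlap. Cxcl12-202 was at 37.9, 37.1 and 77.2 CPM in Runx1_FB_KO, against 132, 96.0 and 113 CPM in CTL. Cxcl12-203 was at 3.60, 13.3 and 30.2 CPM in Runx1_FB_KO, against 105, 37.0 and 48.1 CPM in CTL. Both shorter forms were thus below CTL in every knockout library. The last exon of Cxcl12-203 (chr6:117178583-117181366) lies inside that of Cxcl12-201 (chr6:117176086-117181367), so that Salmon divides the reads there between them and these values are estimates with no test. As TPM, which is per length, the long form was 53.9%, 51.5% and 20.4% of the gene in Runx1_FB_KO, against 9.67%, 15.97% and 9.92% in CTL. On that scale Cxcl12-203 also stood apart, at 2.07%, 7.17% and 13.7% in Runx1_FB_KO against 26.6%, 14.2% and 16.6% in CTL. Cxcl12-202 overlapped, at 39.8%, 36.9% and 63.8% in Runx1_FB_KO against 61.4%, 67.2% and 71.1% in CTL. The retained intron transcript of the gene took 2.21% to 3.10% of the reads in Runx1_FB_KO and 2.68% to 2.79% in CTL, with overlap. With an offset for the effective length of the gene in each library, its log2 fold change came to -0.70 (SE 0.23, adjusted p by edgeR = 0.111). Of the 13 members named by the rule with more than 1 coding variant, the leading variant's share of reads stood apart between the groups in 2, Cxcl12 and Ackr2. The same count over all genes with more than 1 coding variant was not made. Whether such a shift is particular to these members cannot be told. For Ackr2 the share given to Ackr2-202 was 0% to 97.1% in Runx1_FB_KO and 97.7% to 100% in CTL, on at most 129 reads a library.

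**Figure D4:**
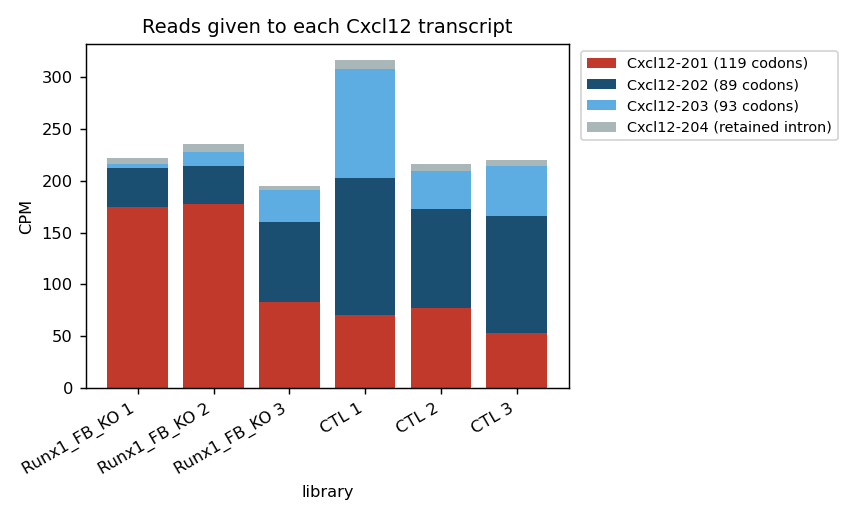
Stacked bars show the CPM given to each Cxcl12 transcript in the 6 libraries. The bar totals are between 195 and 316 CPM, while the part given to Cxcl12-201 (red) is 83.5 to 178 CPM in Runx1_FB_KO and 53.5 to 77.0 CPM in CTL.

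Receptors of monocytes and macrophages all had log2 fold changes below 0 where tested. Ccr2 (chr9:124101950-124113557, plus strand), the receptor of inflammatory monocytes, was at 32.1, 24.5 and 57.2 CPM in Runx1_FB_KO, against 89.8, 77.9 and 71.8 CPM in CTL. All 3 knockout libraries lay below CTL. For Ccr2, edgeR gave a log2 fold change of -1.07 (SE 0.31, adjusted p = 0.0879, DESeq2 adjusted p = 0.0193), and -1.45 (SE 0.17, edgeR adjusted p = 0.000543) without Runx1_FB_KO replicate 3. Ccr1 (chr9:123962124-123968692, minus strand) was at 8.84, 9.84 and 14.1 CPM in Runx1_FB_KO, against 35.9, 11.9 and 20.6 CPM in CTL. Only the third knockout library reached into the CTL range, and edgeR gave a log2 fold change of -1.06 (SE 0.41, adjusted p = 0.136), or -1.25 (edgeR adjusted p = 0.0493) without it. Without CTL replicate 1, the highest library, it was -0.57. Cx3cr1 (chr9:119901616-120069879, minus strand), the fractalkine receptor of resident and patrolling myeloid cells, was at 24.8, 13.7 and 73.1 CPM in Runx1_FB_KO, against 43.7, 61.5 and 51.6 CPM in CTL. Replicates 1 and 2 of the knockout were low, and its replicate 3 lay above all 3 CTL libraries. For Cx3cr1, edgeR gave a log2 fold change of -0.49 (SE 0.56, adjusted p = 0.549), and -1.39 (edgeR adjusted p = 0.00456) without Runx1_FB_KO replicate 3. All 9 macrophage markers had log2 fold changes below 0, 6 of them without overlap (18.8% of all genes), with a median of -0.97. The 3 resident macrophage markers did not all share that direction. Their log2 fold changes were 0.42 for Lyve1, -0.25 for Folr2 and -0.10 for Timd4, and all 3 overlapped. The part of either list in these receptor values was not tested. Cxcr2, of neutrophils, was at 0.327 to 1.41 CPM in Runx1_FB_KO and 0.547 to 3.47 CPM in CTL, and its log2 fold change of -0.85 turned to 0.14 without CTL replicate 1.

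Receptors of lymphocytes and dendritic cells were rare. Cxcr6 held 0.735% to 2.88% of the summed receptor TPM in Runx1_FB_KO and 4.68% to 6.77% in CTL. Per length it was above Cxcr3 and Ccr7 in every library but Runx1_FB_KO replicate 2, where these held 0.760% and 0.766%. All 6 that were tested (Ccr7, Ccr9, Cxcr3, Cxcr5, Cxcr6 and Xcr1) had log2 fold changes below 0, with a median of -1.22, although Xcr1 turned to 0.10 without CTL replicate 2. Cxcr6 (chr9:123806475-123811760, plus strand), found on effector T cells and natural killer T cells, was at 1.64, 0.937 and 6.18 CPM in Runx1_FB_KO, against 11.1, 10.4 and 15.1 CPM in CTL. All 3 knockout libraries were below CTL. For Cxcr6, edgeR gave a log2 fold change of -2.03 (SE 0.65, adjusted p = 0.10, DESeq2 adjusted p = 0.0158), and -3.18 (SE 0.35, edgeR adjusted p = 0.000428) without Runx1_FB_KO replicate 3. Of the 9 T cell and natural killer cell markers, 7 were tested and all 7 had log2 fold changes below 0. The 9 markers had a summed level of 5.62 to 7.96 CPM in Runx1_FB_KO and 13.0 to 23.1 CPM in CTL, none was at 0, and their part in the Cxcr6 value was not tested. The other 5 tested lymphocyte and dendritic cell receptors were at 0 to 1.74 CPM in Runx1_FB_KO and 0.133 to 3.53 CPM in CTL.

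The other atypical receptors overlapped between the groups. Ackr4 (chr9:104084157-104126933, minus strand), which scavenges CCL19, CCL21 and CCL25, was at 7.33, 6.4 and 15.1 CPM in Runx1_FB_KO, against 9.43, 18.8 and 13.5 CPM in CTL (log2 fold change -0.53, SE 0.40, edgeR adjusted p = 0.364). The groups overlapped, and edgeR gave -0.98 (adjusted p = 0.0364) without Runx1_FB_KO replicate 3. Exons of Ackr4 overlap those of Acad11 on the other strand, which was given 1110 to 2540 reads in Runx1_FB_KO and 534 to 1087 in CTL. Ackr2 (chr9:121898355-121911074, plus strand), a scavenger of inflammatory CC chemokines, was at 3.40, 4.76 and 4.44 CPM in Runx1_FB_KO, against 3.38, 5.76 and 3.78 CPM in CTL (log2 fold change -0.04, SE 0.32). Ackr1 (chr1:173331886-173333750, minus strand), the Duffy receptor of venules and red cells, was at 1.24, 2.81 and 1.28 CPM in Runx1_FB_KO, against 2.09, 2.54 and 1.19 CPM in CTL (log2 fold change -0.14, SE 0.51). Both overlapped fully, and the sign of each log2 fold change depended on which library was left out. Exons of Ackr1 overlap those of Cadm3 on the same strand.

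Within each library, the make-up of the receptor message can be read as shares of the summed receptor TPM. Ackr3 held 39.8%, 46.0% and 12.4% in Runx1_FB_KO replicates 1, 2 and 3, against 5.17%, 7.70% and 8.23% in CTL replicates 1, 2 and 3. It was thus the first receptor by TPM in replicates 1 and 2 of the knockout and well below Cxcr4 elsewhere. Cxcr4 held 11.6%, 10.3% and 27.0% in Runx1_FB_KO, against 31.0%, 22.7% and 27.0% in CTL. The share of Ccr2 (9.74% to 13.9% in Runx1_FB_KO, 16.5% to 19.2% in CTL) lay below CTL without overlap, as did that of Cxcr6. Shares depend on each other, so that a higher share of Ackr3 lowers the rest. All receptors summed to 209, 208 and 344 CPM in Runx1_FB_KO, against 370, 335 and 324 CPM in CTL, with replicate 3 of the knockout inside the CTL range.

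**Figure D5:**
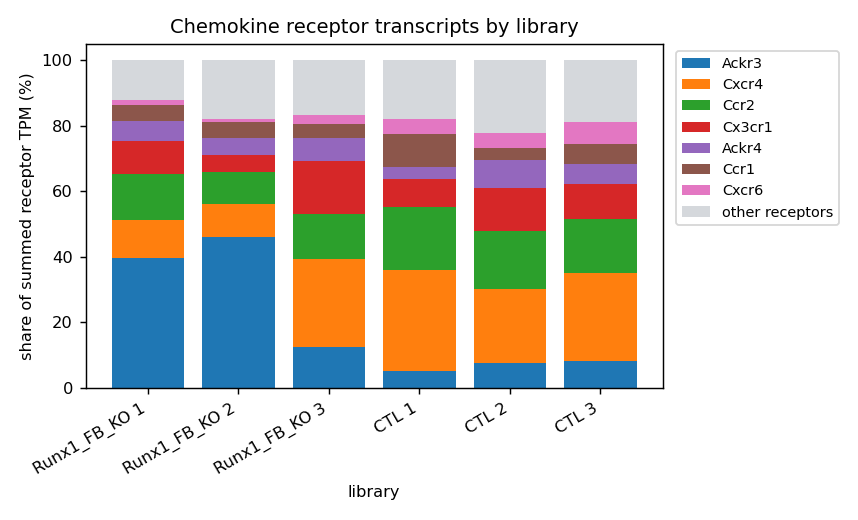
Bars divide the summed receptor TPM of each library (100%) between 7 receptors of high mean TPM and the others. Ackr3 (lowest segment) is 39.8% and 46.0% in Runx1_FB_KO replicates 1 and 2, 12.4% in replicate 3 and 5.17% to 8.23% in CTL.

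The 22 members that were not tested had at most 25 reads in any library, apart from Cxcl15, and 6 of them had 0 reads in every library. They were 15 ligands, among them Ccl1, Ccl20, Ccl22, Ccl28, Cxcl3 and Xcl1, and 7 receptors (Ccr1l1, Ccr3, Ccr4, Ccr6, Ccr8, Ccr10 and Cxcr1). Among them Ccr3, the eotaxin receptor, was given 0, 1 and 2 reads in Runx1_FB_KO, against 12, 6 and 7 reads in CTL, and Ccr6 was given 3, 0 and 1 reads in Runx1_FB_KO, against 5, 7 and 15 reads in CTL. These 2, named after their values were seen, lay below CTL without overlap on CPM, and their reads were too few for the test. How many of all genes that were not tested did so was not counted. The other members that were not tested overlapped between the groups or had 0 reads throughout. The remaining tested ligands, Ccl17, Ccl24 and Ccl25, were at 0 to 3.83 CPM in Runx1_FB_KO and 1.04 to 4.13 CPM in CTL. Ccl17 was at 0.262, 0 and 2.40 CPM in Runx1_FB_KO, against 2.53, 1.38 and 2.59 CPM in CTL, so that replicate 3 alone reached the CTL range.

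Promoters of members were searched for the RUNX core TGTGGT, since RUNX1 binds that sequence, on both strands in a window of 300 bases (250 before the annotated start and 50 after it). RefSeq promoters on GRCm38.p6 were found for 45 of the 61 symbols, and 13 of these 45 (28.9%) held at least 1 match, against 18.9% of all 27025 genes in the same table. The kappaB-type pattern, GGG, then 5 bases of any kind, then CC, was searched on both strands with overlaps allowed and was in 57.8% of the 45 and 53.5% of all genes. Of the 11 members whose groups did not overlap, 9 were in the table and 3 held a RUNX match. Their windows are shown because their levels stood apart between the groups, with the match in capitals, 84 bases before the start for Ackr3 (chr1:90203730-90204029, plus strand), 10 before it for Cxcr6 (chr9:123806227-123806526, plus strand) and 122 before it for Ccl3 (chr11:83649329-83649628, minus strand):
Ackr3: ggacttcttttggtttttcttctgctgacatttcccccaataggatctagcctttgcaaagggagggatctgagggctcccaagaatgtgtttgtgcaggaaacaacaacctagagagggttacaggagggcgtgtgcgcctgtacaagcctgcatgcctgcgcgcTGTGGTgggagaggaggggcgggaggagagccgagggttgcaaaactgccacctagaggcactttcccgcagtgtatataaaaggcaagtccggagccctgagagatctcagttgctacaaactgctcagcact
Cxcr6: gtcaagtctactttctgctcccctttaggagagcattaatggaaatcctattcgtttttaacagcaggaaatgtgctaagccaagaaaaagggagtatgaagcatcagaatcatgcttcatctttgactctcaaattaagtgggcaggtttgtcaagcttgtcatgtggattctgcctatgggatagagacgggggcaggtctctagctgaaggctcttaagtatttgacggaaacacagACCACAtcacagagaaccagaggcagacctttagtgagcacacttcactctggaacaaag
Ccl3: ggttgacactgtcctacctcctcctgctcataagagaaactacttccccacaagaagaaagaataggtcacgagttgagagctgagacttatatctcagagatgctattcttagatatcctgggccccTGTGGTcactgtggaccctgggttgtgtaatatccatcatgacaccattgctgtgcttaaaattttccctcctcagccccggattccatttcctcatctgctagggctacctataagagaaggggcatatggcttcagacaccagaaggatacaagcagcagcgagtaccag
In Cxcr6 the match is read on the opposite strand. One of these genes was higher in the knockout and the others lower. A match describes letters in a window, not binding, and a window without one says nothing of the factor.

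Genes that carry the signal of chemokine receptors inside the cell had a similar direction to the receptors. Of 30 signalling genes (G protein subunits, receptor kinases, phosphoinositide 3-kinases, Rac exchange factors and regulators), 27 had log2 fold changes below 0, 16 lay below CTL without overlap (18.8% of all genes did) and 1 above it (Rgs2), and the median was -0.59; edgeR called 0 of the 30 at an adjusted p under 0.05. Pik3cg, the lipid kinase that G protein beta-gamma subunits activate in leukocytes, was at 11.98, 7.89 and 14.4 CPM in Runx1_FB_KO, against 22.8, 18.4 and 19.99 CPM in CTL (log2 fold change -0.83, SE 0.25, edgeR adjusted p = 0.0922). Grk6, a kinase that desensitises chemokine receptors, was at 33.3, 32.4 and 42.1 CPM in Runx1_FB_KO, against 59.2, 44.8 and 58.7 CPM in CTL (log2 fold change -0.59, SE 0.18, edgeR adjusted p = 0.0931). Neither overlapped between the groups. Pik3cd and Gng2 had log2 fold changes of -1.16 and -1.05, also without overlap.

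Genes of NF-kappaB, interferon and cytokine signalling, which induce chemokines or restrain that induction, mostly lay in the same direction. Of 22, 21 were tested and 20 had log2 fold changes below 0, with a median of -0.54. Among the 20 were Nfkbia (-0.14) and Tnfaip3 (-0.66), which encode inhibitors of NF-kappaB. Of the 21 tested, 9 lay below CTL without overlap (18.8% of all genes did), and edgeR called 0. Il17ra, the interleukin 17 receptor, was at 13.2, 15.5 and 29.6 CPM in Runx1_FB_KO, against 53.9, 42.8 and 53.0 CPM in CTL (log2 fold change -1.36, SE 0.31, edgeR adjusted p = 0.0682). Ifngr1, an interferon gamma receptor chain, was at 86.4, 89.4 and 113 CPM in Runx1_FB_KO, against 153, 157 and 149 CPM in CTL (log2 fold change -0.67, SE 0.17, edgeR adjusted p = 0.0735). In both, all knockout libraries were below CTL, with replicate 3 closest to it. Relb and Tnfrsf1a had log2 fold changes of -0.73 and -0.69, again without overlap.

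Related genes outside the naming rule were mixed. Ccrl2, which binds the leukocyte attractant chemerin and is related to the atypical receptors, was at 15.4, 17.8 and 7.30 CPM in Runx1_FB_KO, against 6.67, 6.16 and 5.42 CPM in CTL. All 3 knockout libraries lay above CTL, as for Ackr3 (log2 fold change 1.15, SE 0.35, edgeR adjusted p = 0.0931). Pf4, a chemokine of platelets and macrophages, was at 14.7, 13.8 and 21.5 CPM in Runx1_FB_KO, against 79.1, 23.1 and 21.03 CPM in CTL (log2 fold change -1.30, SE 0.53, edgeR adjusted p = 0.148). CTL replicate 1 was far above the rest. Chemerin itself (Rarres2) and its signalling receptor Cmklr1 had log2 fold changes of -0.15 and -0.33, and edgeR called 0 of the 6 genes in this group.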

How the data were processed

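Poly-A RNA sequencing of 6 libraries from infarcted hearts was analysed from the authors' deposited transcript tables, which give estimated counts, TPM and effective lengths for 116546 transcripts in each library. Per the submitters' processing notes, Salmon 1.5.2 and DESeq2 1.44.0 were used with mm10 (GRCm38); the annotation release and the strand setting are not given in the sources used here. Where transcripts have sequence in common, Salmon splits the reads among them, so an estimated count can be a fraction.

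Transcripts were matched to GENCODE M21 (115977 matched, 569 did not and were left out), summed per gene and rounded. Genes were filtered with filterByExpr, libraries scaled by TMM (factors 0.732 to 1.214), and Runx1_FB_KO was tested against CTL with edgeR 4.0.16 (quasi-likelihood, genotype alone) with Benjamini-Hochberg adjustment over 14237 genes and a threshold of 0.05. CPM values are TMM-scaled and serve to compare groups. The deposited TPM values have a fixed total per library, so abundant heart muscle and mitochondrial transcripts lower the TPM of all other genes. They serve only to compare genes within a library. Standard errors are those of the log2 fold change.

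The members and lists were chosen with earlier results of these data known. Values by library are given for the 12 ligands and 10 receptors with the highest mean TPM and the 6 tested members with the smallest p in each direction, and other members are named from their values. One of these members is not reported here. The steps were tested on simulated data. Alternatives were sex or replicate number in the model, other scalings and filters, protein-coding genes only, an effective length offset, each library left out, limma-voom (limma 3.58.1), a threshold of 0.1 and DESeq2 1.42.0. DESeq2 on the genes that filterByExpr kept was chosen after seeing the data.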

Additional observations from a re-analysis of the deposited data

Results flagged for a closer look

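Cxcl15, a chemokine best known from lung epithelium, was given 0, 1 and 72 reads in Runx1_FB_KO replicates 1, 2 and 3, against 0, 0 and 0 reads in CTL replicates 1, 2 and 3. It was not among the tested genes, and its 72 reads in a single library are above the limit of 3 reads that a count of 0 allows. That limit covers counting error only and says nothing of the spread between samples. In that library 8 genes of alveolar epithelium, a list chosen after these values were seen, summed to 1019 reads, and Sftpc alone had 632 reads there. The sums were 10 and 2 reads in the other knockout libraries and 75, 55 and 61 in CTL. Most of those smaller sums came from Ager, 1 of the 8, with 10, 2 and 82 reads in Runx1_FB_KO replicates 1, 2 and 3, against 63, 50 and 59 in CTL. The part of lung-type RNA in the Cxcl15 reads was not tested.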

How the results depend on the processing

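With all 6 libraries, edgeR called 0 members and 0 of all genes under sex as a covariate, RLE, upper quartile or library size scaling, a filter of at least 1 CPM in 3 libraries, protein-coding genes only and the effective length offset, as did limma-voom. Calls appeared with DESeq2 (6 members and 2810 genes), DESeq2 on the genes that filterByExpr kept (7 and 2995), edgeR without a filter (1 and 889) and a threshold of 0.1 (4 and 2311). Leaving out a library gave 0 to 19 members called and 0 to 6947 genes, the higher values without Runx1_FB_KO replicate 3. The count of members whose groups did not overlap was 11, was 18 with library size alone, and ran from 11 to 26 with a library left out. The same count over all genes was not made for these other settings, and smaller groups stand apart more easily. The higher counts are therefore no result about the members. The ligand median log2 fold change was -1.20 and the receptor median -1.20 with library size alone, where the median of all genes shifted to -0.52. With a library left out the ligand median ran from -0.91 to -0.63 and the receptor median from -1.27 to -0.59.

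For single genes the sign turned for Ccl21b with library size alone (-0.0099) and with a library left out (-0.24 to 1.06), and for Cxcl14 with library size alone (-0.044) and with a library left out (-0.42 to 0.89). Ackr2 turned with the effective length offset (0.36) and with a library left out (-0.18 to 0.23). With a library left out Ackr1 ran from -0.62 to 0.10 and Ccl2 from -1.27 to 0.053. The cause was not tested. Of the other values of the named members, 451 kept their direction and side of the threshold and 32 passed it.

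With the replicate number as a block, edgeR called 0 members and 0 genes, and the medians were -0.75 for ligands and -0.83 for receptors. The deviations of libraries with the same number correlated at -0.12, 0.15 and 0.08. The best CTL match was replicate 2 for Runx1_FB_KO replicates 1 and 2 and replicate 1 for replicate 3. The labels give only a number, and whether libraries with the same number belong together was not tested. Genes near 1 CPM rest on few reads, which limits the precision of Cxcr5, Xcr1, Ccr7, Ccr9, Cxcl2 and Ccl17.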
